A study of Mus musculus with 2 samples.

Results

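The miR-130/miR-301 family was followed in small RNA libraries (microRNA-seq) of neural tube, from which brain and spinal cord develop, taken from mouse embryos of the strain B6NCrl at 13.5 days. Its members were chosen by gene name, as Mir130a, Mir130b, Mir301b and Mir301, and all 4 were found among the 1973 miRNA genes of the count tables. There was 1 condition with 2 libraries, labelled as biological replicates 1 and 2. Each came from a tissue sample of its own with pooled male and female embryos, and both share 1 strain-level donor entry. The labels give no second genotype, treatment or age, so the comparisons are between the loci, with their relatives by sequence, and between the libraries. An exact two-sided sign-flip test on 2 libraries cannot give a p below 0.5, so differences are set against the spread of the 2 values and against counting error.

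Mature miRNAs guide a silencing complex to messenger RNAs, and pairing of the seed, bases 2 to 8 from the 5′ end, largely decides which messages are bound. The members of the miR-130/miR-301 family share 1 seed, carried on the 3p arm of the hairpin, and so read the same short target site. In cultured human cells miR-130a has been described as a promoter of angiogenesis in endothelium, and miR-130 as a repressor of PPARG and so of fat cell formation. In mouse the genes lie at 3 loci, a lone Mir130a gene, a cluster of Mir301b and Mir130b, and Mir301 inside Ska2, a gene of the kinetochore machinery that attaches chromosomes to the spindle.

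The mature 3p sequences show what the loci share and where they part. They come from RefSeq (GRCm38.p6), which held the 4 hairpins and a 3p entry for 3 of the members, and capitals mark the seed.
miR-130a-3p: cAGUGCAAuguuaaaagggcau
miR-130b-3p: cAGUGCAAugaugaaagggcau
miR-301a-3p: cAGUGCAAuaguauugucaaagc
The seed AGUGCAA pairs with the site TTGCACT. Compared without gaps over their first 22 bases, the products of Mir130a and Mir130b were identical at 20. They differed by U11A and A13G, with the base of miR-130a-3p first and positions counted from 1 at the 5′ end. The product of Mir301 matched that of Mir130a at 12 of 22 bases and that of Mir130b at 11 of 22. Its identity with both ended after base 9, so the product of Mir301 shares the 5′ part of the other products and differs in its 3′ part.

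The hairpins are printed with the same seed in capitals, since the counts were made per hairpin gene and Mir301b is given by its hairpin only. Each hairpin held the seed at 1 place.
Mir130a: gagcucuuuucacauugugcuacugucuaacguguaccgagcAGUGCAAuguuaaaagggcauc
Mir130b: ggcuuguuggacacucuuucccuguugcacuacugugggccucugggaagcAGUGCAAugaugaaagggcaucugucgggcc
Mir301b: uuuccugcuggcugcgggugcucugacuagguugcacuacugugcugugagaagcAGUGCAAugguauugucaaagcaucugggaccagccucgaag
Mir301: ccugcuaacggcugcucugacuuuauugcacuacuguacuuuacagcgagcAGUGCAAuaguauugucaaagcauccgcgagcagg
The longest stretch shared by 2 members was 16 bases, between Mir301b and Mir301, which covers the 3′ part of miR-301a-3p and runs past its end. Mir130a and Mir130b shared 12 bases at most. Against the other 1004 RefSeq hairpins, the longest shared stretch was 17 bases for Mir130a (with Mir6389) and 16 bases for Mir130b (with Mir6368), for Mir301b and for Mir301. Sequence outside miRNA hairpins was not searched.

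The loci differ in their setting (GRCm38, GENCODE M21). Mir130a (chr2:84741115-84741178, minus strand, 64 bases) lies in no annotated gene. Its nearest neighbour on the same strand, Gm19426, lies 990 bases away, and Ypel4 on the other strand 2459 bases away. Mir130b (chr16:17124061-17124142) and Mir301b (chr16:17124400-17124496) lie on the minus strand with 257 bases between them. Both are in intron 1 of 2610318N02Rik in 3 of its 8 annotated transcripts, and outside the other 5, with Mir301b on the 5′ side. Mir301 (chr11:87113004-87113089, plus strand) lies in intron 1 of Ska2 in 2 of its 3 annotated transcripts, and outside the other one.

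Mir130a was by far the most abundant member in the neural tube, followed by Mir130b, Mir301 and Mir301b. Abundance is given as CPM, counts per 1000000, the same-strand count of a gene scaled to the same-strand total on all miRNA genes of its library. A read of a small RNA library covers a mature product, so CPM was not divided by hairpin length. CPM compares reads and not molecules, since miRNAs differ in how well they are ligated and amplified, which was not tested. Counts are per gene, so the 2 arms of a hairpin are not separated. Multimapping reads, 28.5% and 31.0% of all reads, were taken to be outside these counts and totals. Genes with several genomic copies may thus stand too low, and the ranks and shares below hold among uniquely mapped reads only.

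Mir130a had 15883 CPM in replicate 1 and 17862 CPM in replicate 2, from 111487 and 102495 counts, a mean of 16872 ± 1399.6 CPM (SD, n = 2). This was 1.69% ± 0.14 of all counts on miRNA genes, with Wilson 95% intervals of 1.58% to 1.60% in replicate 1 and 1.78% to 1.80% in replicate 2. By uniquely mapped reads it ranked 11 in replicate 1, 9 in replicate 2 and 9 by mean CPM. The ranking held the 371 genes that reached 10 counts in both libraries. All 4 members reached this minimum, which 18.8% of the genes in the tables did.

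Mir130b, whose product differs least from that of Mir130a, had 3954 CPM in replicate 1 and 4484 CPM in replicate 2 (27756 and 25730 counts). Its mean of 4219 ± 375 CPM placed it at rank 34. Its partner Mir301b had 86.8 and 85.2 CPM (609 and 489 counts), a mean of 86.0 ± 1.09 CPM and rank 193. The cluster as a whole therefore stood at 4305 ± 374 CPM, nearly all of it from Mir130b.

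Mir301, the copy inside Ska2, had 1308 CPM in replicate 1 and 1266 CPM in replicate 2 (9183 and 7262 counts), a mean of 1287 ± 30.2 CPM at rank 73. The order Mir130a, Mir130b, Mir301, Mir301b was the same in both libraries, and the values of neighbours in this order did not overlap.

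**Figure D1:**
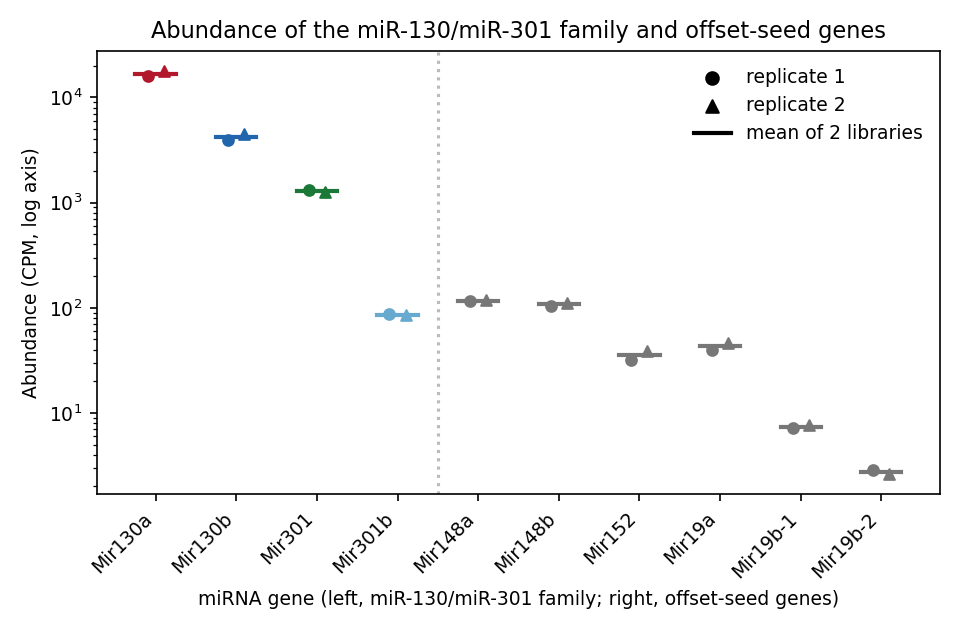
Abundance in CPM on a log axis of the 4 family genes, left of the dotted line, and of 6 genes with an offset seed, right of it; circles are replicate 1, triangles replicate 2 and bars the mean of the 2 libraries. Mir130a stands at 16872 CPM on average, Mir301b at 86.0 CPM, and the offset-seed genes lie between 2.61 and 117 CPM.

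Added together, the family had 21232 CPM in replicate 1 and 23697 CPM in replicate 2, or 2.25% ± 0.17 of all counts. Within it, Mir130a held 75.1% ± 0.40 of the counts, with 74.8% (Wilson 95% interval 74.6% to 75.0%) in replicate 1 and 75.4% (75.1% to 75.6%) in replicate 2. The Mir130b and Mir301b cluster held 19.2% ± 0.18, of which Mir301b gave 0.384% ± 0.035 of the family. Mir301 held 5.75% ± 0.58, with 6.16% (6.04% to 6.28%) in replicate 1 and 5.34% (5.22% to 5.46%) in replicate 2. The share of the Ska2 copy was thus the one that differed most between the libraries in relation to its size among the 3 loci.

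No count was found on 3 further genes whose RefSeq mature product has the seed AGUGCAA. Mir130c, Mir6341 and Mir6389 had 0 counts in both libraries, which allows up to 0.427 CPM in replicate 1 and 0.523 CPM in replicate 2 for each (3 counts of the total). Mir721, which has the seed as well, was not analysed here. The products are printed because they match the members beyond the seed.
miR-130c: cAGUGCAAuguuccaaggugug
miR-6341: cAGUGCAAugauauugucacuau
miR-6389: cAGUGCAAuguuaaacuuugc

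A second set of relatives reads a target site that overlaps that of the family. The seed of Mir148a, Mir148b and Mir152 is CAGUGCA and that of Mir19a, Mir19b-1 and Mir19b-2 is GUGCAAA, each with 6 letters in common with AGUGCAA. The products of Mir148a and Mir19a are shown to place the shift, with bases 2 to 8 in capitals.
miR-148a-3p: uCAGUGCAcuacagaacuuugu
miR-19a-3p: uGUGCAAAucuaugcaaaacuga
The miR-19 genes are part of the miR-17-92 cluster and its paralog, which promote growth in many tissues. All 6 genes reached 10 counts in each library, and together they had 302 CPM in replicate 1 and 324 CPM in replicate 2. The family exceeded their sum 70.2-fold in replicate 1 and 73.1-fold in replicate 2, a log2 ratio of 6.16 ± 0.041 (SD, n = 2). Mir148a had 117 CPM in both libraries, Mir148b 104 and 112 CPM, and Mir152 31.8 and 38.7 CPM. Mir301b, the lowest member at 86.8 and 85.2 CPM, was thus below Mir148a and Mir148b and above Mir152. Mir19a had 39.6 and 46.2 CPM, Mir19b-1 had 7.12 and 7.67 CPM, and Mir19b-2 had 2.85 and 2.61 CPM. Mir19b-1 and Mir19b-2 give the same mature product, and reads that map to several places appear in no gene's count, so their values may be too low.

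The 3 loci stood at unequal levels within each library, with the lone gene above the cluster and the cluster above the Ska2 copy. Mir130a exceeded the sum of Mir130b and Mir301b 3.93-fold in replicate 1 and 3.91-fold in replicate 2. The mean log2 ratio was 1.97 ± 0.0055 (SD, n = 2), and the exact 95% counting intervals were 1.96 to 1.99 and 1.95 to 1.99. The difference between the libraries in this log2 ratio, replicate 1 minus replicate 2, was 0.0078 (exact conditional 95% interval -0.019 to 0.035), so none was detectable beyond counting error. Against Mir130b alone, Mir130a was 4.02-fold higher in replicate 1 and 3.98-fold higher in replicate 2.

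The ratios to the Ska2 copy were less even. Mir130a exceeded Mir301 12.1-fold in replicate 1 and 14.1-fold in replicate 2, with log2 ratios of 3.60 (3.57 to 3.63) and 3.82 (3.78 to 3.85) and a mean of 3.71 ± 0.15. The cluster exceeded Mir301 3.09-fold and 3.61-fold, with log2 ratios of 1.63 (1.59 to 1.66) and 1.85 (1.81 to 1.89) and a mean of 1.74 ± 0.16. The difference between the libraries was -0.22 (-0.26 to -0.17) for Mir130a over Mir301 and -0.23 (-0.28 to -0.17) for the cluster over Mir301. Both intervals left out 0, while the ratios themselves were far larger than their SD. The 2 ratios share Mir301, so they are not separate observations. Intervals that leave out 0 were common between these libraries: for single genes they made up 62.7% of 306, with a median difference of 0.17 in size.

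**Figure D2:**
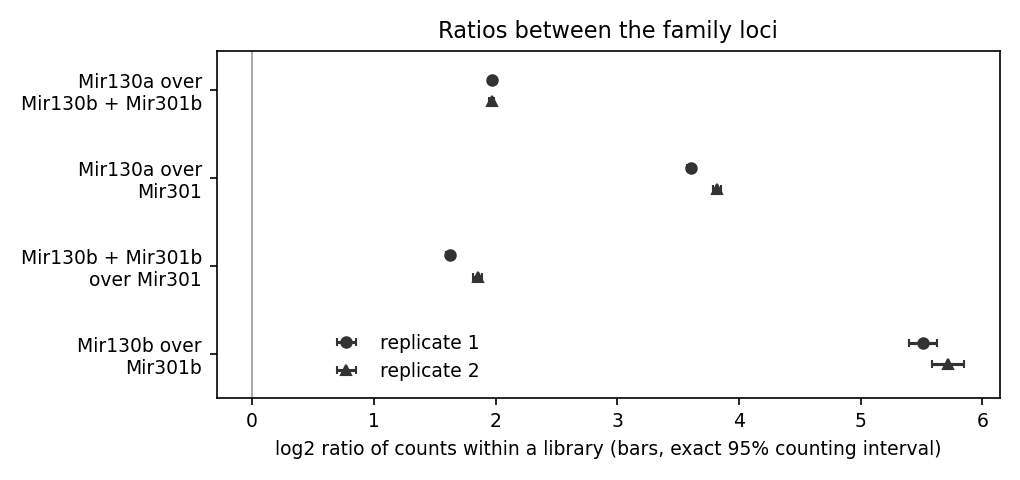
Log2 ratios of counts between the family loci within each library (horizontal axis), with exact 95% counting intervals; circles are replicate 1 and triangles replicate 2. The ratio of Mir130a to the cluster is 1.97 in both libraries, while both ratios to Mir301 are higher in replicate 2.

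Within the cluster the 2 hairpins were very unequal. Mir130b exceeded Mir301b 45.5-fold in replicate 1 and 52.6-fold in replicate 2, with log2 ratios of 5.51 (5.39 to 5.63) and 5.72 (5.59 to 5.85) and a mean of 5.61 ± 0.15. The difference between the libraries, replicate 1 minus replicate 2, was -0.21 (-0.38 to -0.031), an interval that left out 0. Unequal neighbours were common in these libraries. Among 63 pairs of adjacent miRNA genes on 1 strand, with under 1000 bases between them and at least 10 counts each in each library, the median unsigned log2 ratio was 3.03, or 8.17-fold. The cluster's pair came 14th, with 13 pairs more unequal. Some of these pairs, such as Mir20a and Mir19b-1 at 10.1, include genes with several genomic copies, whose counts may lack reads. Mir301, whose hairpin shares the longest stretch with that of Mir301b, exceeded it 15.1-fold in replicate 1 and 14.8-fold in replicate 2.

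**Figure D3:**
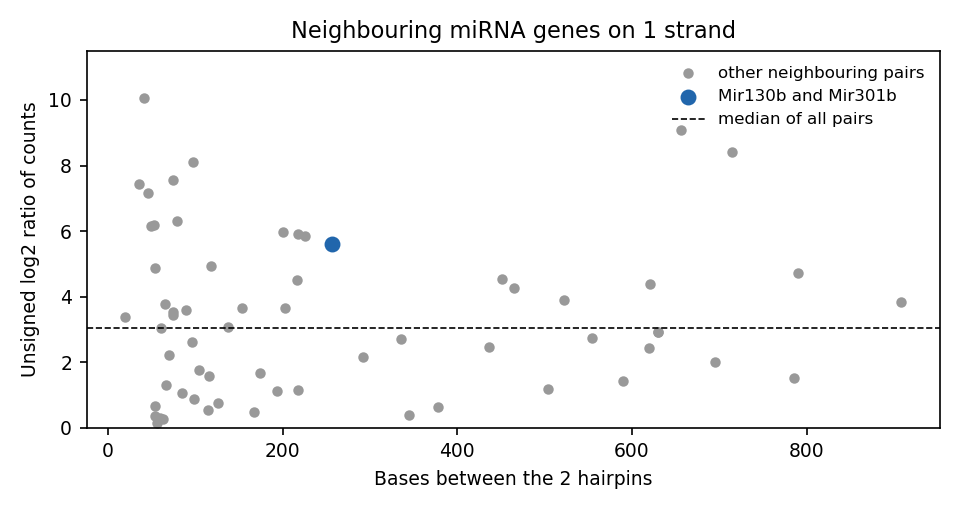
Unsigned log2 ratio of the counts of paired miRNA genes (mean of the 2 libraries) against the bases between their hairpins. Pairs are genes adjacent on 1 strand among those with at least 10 counts in each library. The blue point is Mir130b and Mir301b, grey points the other pairs, and the dashed line the median of all 63 pairs. The cluster's pair lies at 5.61, above the median of 3.03 and below 13 other pairs.

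Mir130a and Mir130b were slightly lower in replicate 1 than in replicate 2, and Mir301 slightly higher. Differences between the libraries are log2 ratios of replicate 1 over replicate 2, scaled by TMM (trimmed mean of M values, which sets libraries to a common level from the bulk of their genes), with 1 library on each side and so no replicate check. Mir130a was at -0.12 (exact 95% counting interval -0.13 to -0.10), Mir130b at -0.13 (-0.15 to -0.10), Mir301 at 0.10 (0.06 to 0.15) and Mir301b at 0.08 (-0.09 to 0.25). The family sum was at -0.10 (-0.11 to -0.09). None of the 4 members differed by more than 0.5, against 9.48% of the 306 genes with at least 100 counts summed, or 29 genes. The counting interval left out 0 for 3 of the 4 members, against 62.7% of the 306 genes. Both shares are near the background, and the members' differences, 0.08 to 0.13 in size, lay below the median size of 0.17 over all 306 genes.

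**Figure D4:**
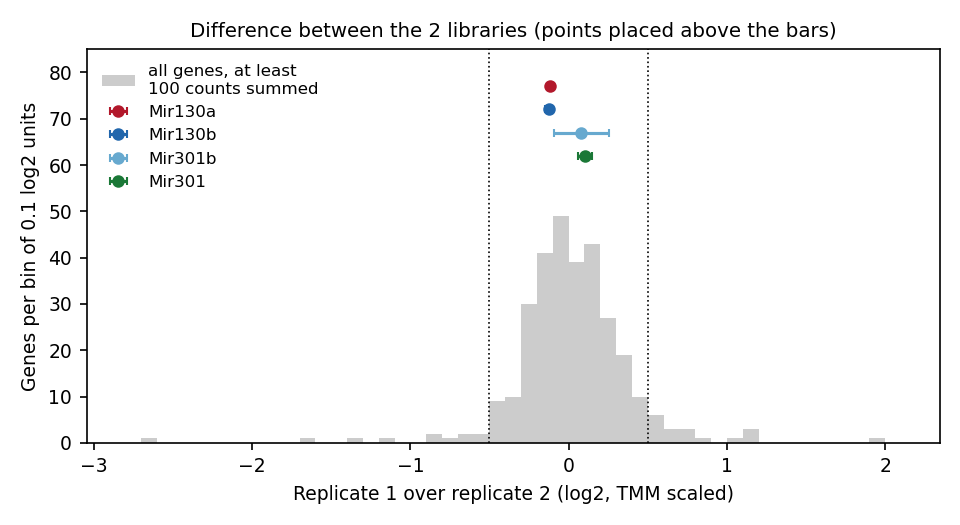
Log2 ratio of replicate 1 over replicate 2, TMM scaled: grey bars count the 306 genes with at least 100 counts summed in bins of 0.1, and coloured points with exact 95% counting intervals are the family genes, drawn above the bars. Dotted lines mark 0.5 either way; the 4 members lie between -0.13 and 0.10.

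**Figure D5:**
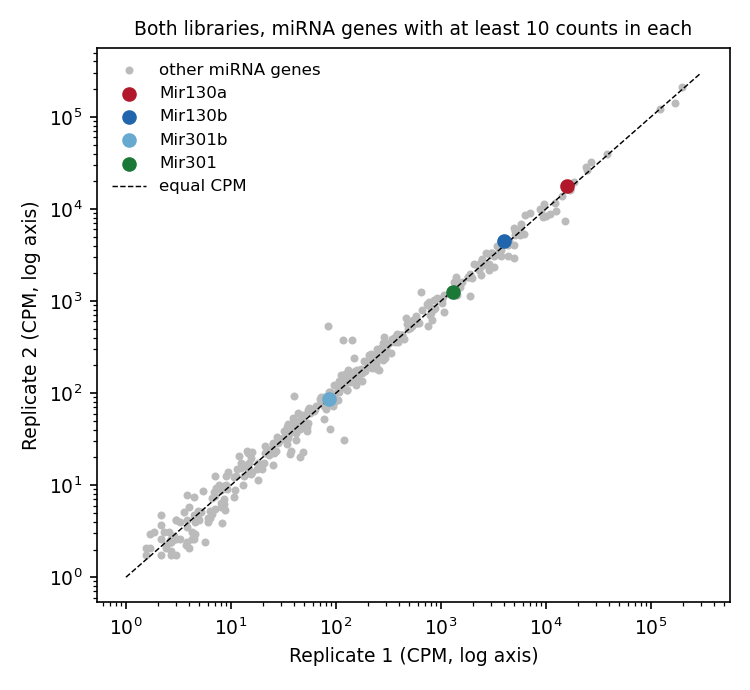
Abundance in CPM in replicate 1 (horizontal, log axis) and replicate 2 (vertical, log axis) of 371 miRNA genes that reached 10 counts in both libraries, with the 4 family genes in colour and the dashed line at equal CPM. The family spans the range from 86.0 CPM for Mir301b to 16872 CPM for Mir130a and lies close to the line.

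The genes nearest to each member, by the distance between their log2 CPM values in both libraries, give a scale for these levels. With 2 libraries this measures likeness in level and says nothing of a shared pattern. Mir130a lay nearest to Mir99b (17008 and 16381 CPM, distance 0.16) and to the endothelial miRNA Mir126a (17134 and 16019 CPM, distance 0.19). Mir130b lay nearest to Mir382 (4018 and 4362 CPM, distance 0.046) and Mir652. Mir301 lay nearest to Mir92-1 (1301 and 1271 CPM, distance 0.010) and Mir16-1, and Mir301b to Mir92-2 (83.8 and 82.3 CPM, distance 0.072) and Mir329. Mir92 and Mir16 have several genomic copies, and multimapping reads were taken to be outside the gene counts. Likeness to these genes is therefore in counts and may not hold for the mature products.

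The libraries held 7019469 and 5738209 same-strand counts on miRNA genes. Markers of neurons were present, with 6029 and 6242 CPM over 8 neuronal genes, of which 5 reached 10 counts in each library. Mir137 alone gave 5025 and 5168 CPM of this sum, while the 3 Mir124a genes and Mir9-2 each had at most 4.42 CPM. Mir124a, Mir9 and Mir128 have several genomic copies, as have the mesenchymal Mir199a and the muscle genes Mir1a and Mir133a. Multimapping reads were taken to be outside the gene counts, so values of these genes may be too low, and low or 0 values do not show a low level. Genes listed as markers of other cell types had counts too, which does not by itself show those cells in the dissected tissue. Endothelial Mir126a had 17134 and 16019 CPM, and 5 mesenchymal genes (4 at 10 counts or more in each library) had 8387 and 10380 CPM together. Most of that sum came from Mir143 (5024 and 5788 CPM) and Mir140 (2699 and 3322 CPM). Mir214 had 648 and 1248 CPM, Mir199a-2 had 15.4 and 19.9 CPM, and Mir199a-1 had 0.43 and 2.44 CPM. The 3 erythroid genes, all past the minimum, had 76.1 and 48.3 CPM, and the 3 leukocyte genes, all past it, 256 and 237 CPM. Of 4 skeletal muscle genes, 1 passed it, Mir133a-1 and Mir133a-2 were at 0, and the sum was 118 and 373 CPM. The part of any of these cell types in the family's counts was not tested, and in bulk tissue fewer cells of a type and less RNA per cell cannot be told apart. Mir9-1, Mir126b, Mir142, Mir1a-2 and Mir145 were not analysed here.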

How the data were processed

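Per the file headers, the authors deposited gene quantifications on mm10 with annotation M4, 1 table per library; aligner and counter: not given in the sources used here. Values are raw read counts per miRNA gene in 3 columns, read from the deposited values as unstranded, same-strand and opposite-strand. Multimapping reads, 28.5% and 31.0% of all reads, were taken, from the layout of the tables, to be outside every gene's count. The same-strand counts were used. The IDs, without version, were named from GENCODE M21 (GRCm38): 1894 of 1973 matched, and the 79 others held 8 counts.

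CPM, shares, ratios (pseudocount 0.5) and ranks were computed in Python 3.11.15 with scipy 1.17.1, and TMM factors in edgeR 4.0.16 (R 4.3.3). Wilson and exact 95% intervals and the limits for 0 counts cover counting error only, since PCR reads with no molecular identifier are not independent molecules. The computation of differences between libraries was tested on simulated data with counting error only. That test does not cover any further spread between the libraries. Named were the members, the same-seed and offset-seed genes, the 2 nearest genes of each member, host and neighbouring genes, and cell type markers. Exact conditional intervals of the difference between libraries in a locus ratio were added after the values were seen. The pair Mir20a and Mir19b-1 and Mir6368 were named after their values were seen, and the comparison of adjacent pairs was added then. Members and lists were chosen with earlier results of these data known. Alternatives were other denominators (DESeq2 1.42.0 among them), columns, pseudocounts, count minimums and each replicate left out.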

Additional observations from a re-analysis of the deposited data

Results flagged for a closer look

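Opposite-strand counts, used only within the unstranded counts of the alternative settings, reached 6 on Mir130a in replicate 1, above the limit of 3 that a count of 0 allows, against 111487 same-strand counts on the same gene. Replicate 2 had 2, and Mir130b, Mir301b and Mir301 had 0 in both libraries.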

How the results depend on the processing

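No value changed sign under any alternative tried, but only the log2 ratios and the differences between the libraries could. Abundances, ranks and the count of genes are positive by definition. With 2 libraries, leaving one out always moves a mean by less than their SD, so those values say nothing of stability. The 29 genes past 0.5 between the libraries became 26 with plain totals and 30 with unstranded counts. Without Mir10a, the most abundant gene, in the total, Mir130a stood at 21226 CPM, Mir130b at 5308 CPM, Mir301b at 108 CPM, Mir301 at 1618 CPM and the family at 28259 CPM, as follows from the smaller total. With unstranded counts Mir301b stood at 84.8 CPM. With the mean per gene of the cluster in place of its sum, a lower value by construction, the log2 ratio of Mir130a to the cluster was 2.97 and that of the cluster to Mir301 was 0.74. Counts per base of hairpin, chosen after seeing the data, gave log2 ratios of 2.33 for Mir130a over the cluster, 4.14 for Mir130a over Mir301, 5.86 for Mir130b over Mir301b, 2.36 for Mir130a over Mir130b and 4.08 for Mir301 over Mir301b. The difference of replicate 1 over replicate 2 with DESeq2 size factors was -0.14 for Mir130a, -0.15 for Mir130b and -0.13 for the family. With plain totals it was -0.17, -0.18 and -0.16 for these and 0.048 for Mir301 (interval 0.0033 to 0.092), and the interval left out 0 for the same 3 members under all 3 scalings. With 1 library left out, Mir130a ranked 9 to 11 and Mir301b 193 to 195, and Mir130a was at 15883 to 17862 CPM. Mir301b had the fewest counts of the members and the widest counting interval between the libraries (-0.09 to 0.25). This interval spans 0, around a difference of 0.08. No paired analysis was possible because there is 1 group only.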
